A study of Mus musculus with 3 samples.

Results

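The heat shock proteins of the cytosol and the mitochondria were taken as 10 named mouse genes: Hspa1a, Hspa1b, Hspa8, Hsp90aa1, Hsp90ab1, Hsph1, Dnajb1, Dnaja1, Hspd1 and Hspe1. They were found as the probe sets whose annotated gene symbol is one of these names. Of the 10 genes, 7 had at least 1 probe set named for them alone, among 18820 such genes on the array. Hspa1a and Hspa1b had only probe sets named for both, so their transcripts cannot be told apart here, and Hsp90ab1 was not analysed here. In all, 20 of the 35556 probe sets carried a member's name: 14 named for 1 member, 3 named for Hspa1a and Hspa1b together, and 3 that a member shared with a small RNA gene and that were not used.

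The cells were RAW264.7, a mouse macrophage-like line grown in culture. Each culture received a single fatty acid at 500 µM for 6 hours, carried on fatty-acid-free serum albumin at a ratio of 2 fatty acids per albumin. The 3 groups were palmitate, a saturated fatty acid; elaidate, a monounsaturated fatty acid with a trans double bond; and oleate, its cis isomer, which served as the reference for the other 2. Each group is 1 culture and 1 array. There are no replicate arrays and no cells without added fatty acid, so a difference below lies between a pair of arrays, has no error and no p-value, and does not show a response to a fatty acid as such. All 10 macrophage markers examined passed the filter on low values described below, with log2 values of 7.02 to 11.77 over the arrays. Of markers of other cells, 2 of 6 fibroblast markers passed it (Col1a1 and Acta2, at 4.18 and 5.00), as did 2 of 5 measured dendritic cell and granulocyte markers (Ccr7 and S100a8, at 4.22 and 4.61) and 0 of 6 measured lymphocyte markers.

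Heat shock proteins are molecular chaperones. In the cytosol, HSP70 proteins bind exposed hydrophobic stretches of unfolded proteins in a cycle driven by ATP. J-domain proteins such as Dnajb1 and Dnaja1 bring clients to HSP70 and start ATP hydrolysis, and HSP110 proteins such as Hsph1 exchange the nucleotide so that the client is released. HSP90 acts later, on kinases, steroid receptors and other nearly folded clients. In the mitochondrial matrix, Hspd1 (HSP60) forms a barrel in which imported proteins fold, and Hspe1 (HSP10) is its lid. Many of these genes are induced together by the transcription factor HSF1, which binds heat shock elements, inverted repeats of the unit GAA spaced by any 2 bases.

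The promoters of members are shown because members that share this control element can be read against each other. RefSeq promoter windows on build GRCm38.p6, from 250 bases before to 50 bases after an annotated start, were found for 7 of the 10 genes, with 12 windows in all. Hspa8, Hsp90aa1 and Hsp90ab1 are named only. Capitals mark every match to GAANNTTC or TTCNNGAA (2 units of the element) and to GAANNTTCNNGAA or TTCNNGAANNTTC (3 units). Each motif was searched on both strands; the 2-unit motifs read the same on both, the 3-unit motifs are each other's reverse complement, and each 3-unit match contains 2-unit matches. The windows are written 5′ to 3′ in the direction of the gene.
Hspa1a, GRCm38.p6 chr17:34972107-34972406, minus strand: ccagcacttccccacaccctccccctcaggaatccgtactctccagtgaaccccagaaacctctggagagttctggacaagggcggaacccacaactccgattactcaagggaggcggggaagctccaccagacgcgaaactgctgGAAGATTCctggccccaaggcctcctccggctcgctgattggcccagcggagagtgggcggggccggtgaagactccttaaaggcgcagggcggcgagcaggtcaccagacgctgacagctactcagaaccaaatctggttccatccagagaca
Hsph1, GRCm38.p6 chr5:149636287-149636586, minus strand: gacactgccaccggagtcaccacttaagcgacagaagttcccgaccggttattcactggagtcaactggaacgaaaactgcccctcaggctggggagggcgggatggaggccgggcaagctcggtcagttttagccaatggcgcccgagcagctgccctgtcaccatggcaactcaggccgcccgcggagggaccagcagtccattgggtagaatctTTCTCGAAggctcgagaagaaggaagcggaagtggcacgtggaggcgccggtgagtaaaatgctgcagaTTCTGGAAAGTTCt
Dnajb1, GRCm38.p6 chr8:83607925-83608224, plus strand: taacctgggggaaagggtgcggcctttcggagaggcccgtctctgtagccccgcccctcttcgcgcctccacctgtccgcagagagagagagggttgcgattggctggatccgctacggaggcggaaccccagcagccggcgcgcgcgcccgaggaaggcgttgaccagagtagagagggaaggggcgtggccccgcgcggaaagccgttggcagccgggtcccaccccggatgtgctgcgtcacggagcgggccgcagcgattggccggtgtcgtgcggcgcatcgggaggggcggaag
Dnaja1, GRCm38.p6 chr4:40722218-40722517, plus strand: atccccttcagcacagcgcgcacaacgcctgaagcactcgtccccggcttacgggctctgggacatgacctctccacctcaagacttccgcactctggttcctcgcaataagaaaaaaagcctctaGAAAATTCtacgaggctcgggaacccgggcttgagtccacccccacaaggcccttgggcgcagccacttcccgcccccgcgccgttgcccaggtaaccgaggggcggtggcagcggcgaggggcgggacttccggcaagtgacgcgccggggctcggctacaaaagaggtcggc
Hspe1, GRCm38.p6 chr1:55087898-55088197, plus strand: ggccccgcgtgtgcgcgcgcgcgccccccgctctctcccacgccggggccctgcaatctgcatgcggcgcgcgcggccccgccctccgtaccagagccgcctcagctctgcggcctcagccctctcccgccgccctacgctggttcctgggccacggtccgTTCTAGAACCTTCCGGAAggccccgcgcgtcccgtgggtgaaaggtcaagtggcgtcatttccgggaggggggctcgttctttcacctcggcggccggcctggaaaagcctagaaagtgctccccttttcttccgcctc

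Matches to a 2-unit motif lay in 7 of the 12 windows, from 6 of the 7 genes, beside 15.1% of all 32851 promoter windows in the table. A 3-unit match was present in 4 of the 12 windows, from 3 genes, beside 0.603% of all windows. These counts hold overlapping windows: the matches lie on 6 distinct stretches of DNA, of which 2 hold 3 units. The members were listed as chaperones of the HSF1 type, so an excess of this motif over all windows is not an independent finding. The 3 genes were Hsph1, with the same match in both of its windows, Hspd1 and Hspe1. Hspd1 and Hspe1 lie head to head, and the Hspe1 window shown overlaps a window of Hspd1 on the opposite strand by 285 bases, so their match is the same stretch of DNA. The capital run of the Hspe1 window is 18 bases long, holds 4 units in a row and begins 89 bases before the annotated start. Hspa1a and Hspa1b each had a 2-unit match beginning 104 bases before the start, in windows that differ at 4 of 300 bases. In the Hsph1 window shown, a 2-unit match begins 33 bases before the start and the 3-unit match lies after it. In the Dnaja1 window shown, the 2-unit match begins 124 bases before the start. Neither of the Dnajb1 windows held a match. Only exact matches inside the windows were searched, so a window without one does not show that the gene lacks the element. A match describes letters in the window and is not evidence of binding.

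The HSP70 machine of the cytosol was lower on the palmitate array for Hspa8, Hsph1 and Dnajb1, while the arrays of the 2 monounsaturated isomers were close to each other for all 3 genes. Hspa8, the constitutive HSP70 of the cytosol, was measured by 3 probe sets of its own. Probe set 10584572 read log2 values of 10.05 with palmitate, 10.51 with elaidate and 10.52 with oleate. Probe set 10368025 read 11.95 with palmitate, 12.31 with elaidate and 12.28 with oleate. Probe set 10528021 read 11.84 with palmitate, 12.22 with elaidate and 12.16 with oleate. In each of the 3, palmitate had the lowest value. The mean log2 difference over the 3 probe sets was -0.38 for palmitate minus oleate, a ratio of 0.771, and -0.40 for palmitate minus elaidate. It was 0.03 for elaidate minus oleate. Probe sets 10584576 and 10584578, which Hspa8 shares with small RNA genes and which were not used, had another pattern. In them palmitate minus oleate was -0.14 in both, elaidate minus oleate -0.14 and -0.15, and palmitate minus elaidate 0 and 0.01. In RNA from a whole culture, fewer cells that make a transcript and less of it per cell cannot be told apart.

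The 3 Hspa8 probe sets differed in where their numbers fall. Probe sets with nearby numbers mostly name genes of 1 chromosome, and for 10584572 all 20 nearest-numbered probe sets with a single named gene belong to genes on the chromosome of Hspa8. For each of the other 2, 0 of the 20 do, although they carry the same gene name. The first had the larger gap, -0.48 for palmitate minus oleate, against -0.33 for each of the others. Sequences of the probes were not used here, so whether the other sets read copies of the gene elsewhere in the genome was not tested.

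Hsph1, the HSP110 nucleotide exchange factor, had 1 probe set, with log2 values of 8.63 with palmitate, 9.08 with elaidate and 9.04 with oleate. Its differences were -0.41 for palmitate minus oleate, a ratio of 0.754, -0.45 for palmitate minus elaidate and 0.04 for elaidate minus oleate. Palmitate again stood alone at the low end. Dnajb1, the J-domain protein also known as HSP40, had the widest range of the 7 genes. Its probe set read 6.91 with palmitate, 7.53 with elaidate and 7.61 with oleate. The difference was -0.70 for palmitate minus oleate, a ratio of 0.616, and -0.63 for palmitate minus elaidate, a ratio of 0.648. It was -0.07 for elaidate minus oleate.

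Dnaja1, a J-domain partner of Hspa8, had 2 probe sets that differed in how far they moved. Probe set 10521587 read 9.28 with palmitate, 9.49 with elaidate and 9.40 with oleate. Probe set 10503995, the one numbered among genes of its own chromosome, read 5.78 with palmitate, 5.81 with elaidate and 5.78 with oleate. The mean log2 differences were -0.06 for palmitate minus oleate, -0.12 for palmitate minus elaidate and 0.06 for elaidate minus oleate. Elaidate held the highest value in both sets, and only 10521587 had palmitate below oleate.

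The stress-inducible HSP70 genes Hspa1a and Hspa1b were measured only by shared probe sets with low values. Of the 3, probe set 10450367 lay above the filter of 4.14 and read the same log2 value of 5.27 on all 3 arrays. The others lay under it: 10450369 read 2.86 on all 3 arrays. Probe set 10444589 read 3.30 with palmitate, 3.30 with elaidate and 3.59 with oleate, a difference that nothing is read from at this level. Values equal on all 3 arrays to within 1e-06 are common in this table and held for 27.5% of the genes past the filter. An equal value therefore says that the summarised probes gave no difference, and not that the transcript was shown to be unchanged.

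Hsp90aa1, the inducible cytosolic HSP90, hardly differed between arrays. Its probe set numbered on its own chromosome, 10402615, read 11.77 with palmitate, 11.77 with elaidate and 11.74 with oleate. The mean over its 3 probe sets was 11.75 with palmitate, 11.74 with elaidate and 11.72 with oleate. Oleate was lowest in each set, by a mean log2 difference of 0.03 for palmitate minus oleate and 0.03 for elaidate minus oleate. Palmitate minus elaidate gave 0.01.

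The mitochondrial chaperonin genes Hspd1 and Hspe1 were read side by side. Hspd1, the HSP60 barrel subunit, was highest on the palmitate array in both of its probe sets. Probe set 10354732, numbered on its own chromosome, read 10.59 with palmitate, 10.23 with elaidate and 10.17 with oleate. Probe set 10375240 read 11.11 with palmitate, 10.95 with elaidate and 10.87 with oleate. The mean log2 differences were 0.33 for palmitate minus oleate, a ratio of 1.26, 0.26 for palmitate minus elaidate and 0.07 for elaidate minus oleate. Hspe1, the HSP10 lid, read 10.68 on all 3 arrays in one probe set and 10.88 on all 3 in the other. An equal value does not show that the Hspe1 transcript was unchanged. Whether the 2 genes that share the promoter stretch printed above differ in their transcripts was therefore not tested.

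**Figure D1:**
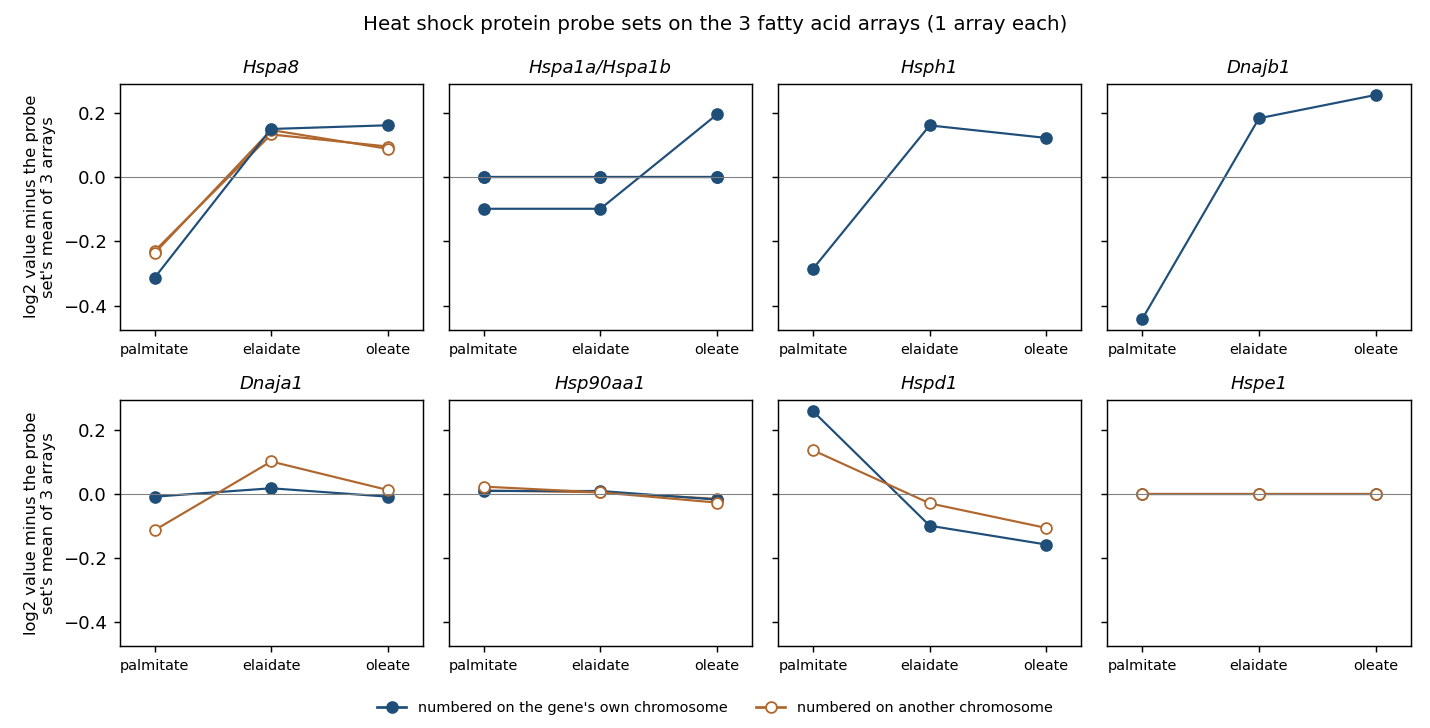
Log2 value of each probe set minus its own mean over the 3 arrays (vertical axis), by array (horizontal axis: palmitate, elaidate, oleate), with 1 panel per gene and 1 line per probe set; filled points are probe sets numbered among genes of the gene's own chromosome and open points are the others. Palmitate is the low point for Hspa8, Hsph1 and Dnajb1 and the high point for Hspd1, and the 2 lines of Hspe1 are flat.

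Among the 7 genes with a probe set of their own, palmitate was the array furthest from the other 2 for Hspa8, Hsph1 and Dnajb1, which were lower on it, and for Hspd1, which was higher. Dnaja1 was spread about evenly, oleate lay furthest out for Hsp90aa1, and Hspe1 was equal. All 7 passed the filter, which kept the upper 9410 genes by mean log2 value (4.14 or more). For palmitate minus oleate, 2 members were higher, 4 lower and 1 equal, with differences of -0.70 to 0.33 and a median of -0.06, beside a median of 0 over all genes past the filter, of which 30.9% were higher, 36.8% lower and 32.3% equal. For palmitate minus elaidate, 2 were higher, 4 lower and 1 equal, from -0.63 to 0.26 with a median of -0.12, again beside a median of 0, with 27.9% of all genes higher, 37.9% lower and 34.2% equal. These small medians depended on how the genes were summarised: for palmitate minus oleate the median was -0.13 with each gene's brightest probe set and 0 with the set numbered on its own chromosome, and for palmitate minus elaidate these were -0.21 and -0.03. The counts depended on this too. With the set numbered on its own chromosome, Dnaja1 was equal, at 0, for palmitate minus oleate. Hsp90aa1 was then equal, at 0, for palmitate minus elaidate. These 2 comparisons share the palmitate array and are not independent.

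No member reached a 2-fold difference in any comparison. Among all 9410 genes, 1.65% were at least 2-fold higher and 1.22% at least 2-fold lower for palmitate minus oleate, and 0.978% were higher and 0.871% lower for palmitate minus elaidate. At a limit of 1.5-fold, 1 member, Dnajb1, was lower for palmitate minus oleate, where 4.73% of all genes were, and also for palmitate minus elaidate, where 4.43% were. At a lower limit, a log2 difference of at least 0.32 in size, Dnajb1, Hsph1 and Hspa8 were lower for palmitate minus oleate, 3 of 7 beside 11.7% of all genes, and Hspd1 was higher, 1 of 7 beside 9.88%. The call of Hspd1 ended with arrays centred on their medians, at 0.29, and with its brightest probe set, at 0.24. Just inside that limit stood Hspd1 at 0.33, and the nearest member outside it was Dnaja1 at -0.06. For palmitate minus elaidate Dnajb1, Hsph1 and Hspa8 were lower at this limit too, beside 11.4% of all genes, and 0 members were higher, beside 8.02%.

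The place of each member among all genes was then read as a rank. For palmitate minus oleate, 296 of the 9410 genes had a lower difference than Dnajb1, 828 had a lower one than Hsph1 and 917 a lower one than Hspa8, while 914 had a higher one than Hspd1. For palmitate minus elaidate, 356 genes were lower than Dnajb1, 666 lower than Hsph1 and 777 lower than Hspa8, and 920 were higher than Hspd1. Dnajb1 was the member outside the range that holds the middle 90% of genes, which ran from -0.56 to 0.55 for palmitate minus oleate and from -0.55 to 0.46 for palmitate minus elaidate.

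The cis and trans isomers, which differ only in the geometry of the double bond, gave nearly the same values for the members at the matched dose and time. For elaidate minus oleate, 5 members were higher, 1 was lower and 1 was equal, with differences of -0.07 (Dnajb1) to 0.07 (Hspd1) and a median of 0.03; of all genes 31.5% were higher, 24.3% lower and 44.1% equal. None reached even the limit of 0.32, which 2.67% of all genes reached on the higher side and 0.893% on the lower. At 1.5-fold the shares of all genes were 0.723% higher and 0.0638% lower, and at 2-fold 0.106% higher and 0% lower. Without replicate arrays these differences have no interval, so the values do not show that the isomers act alike on these genes.

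**Figure D2:**
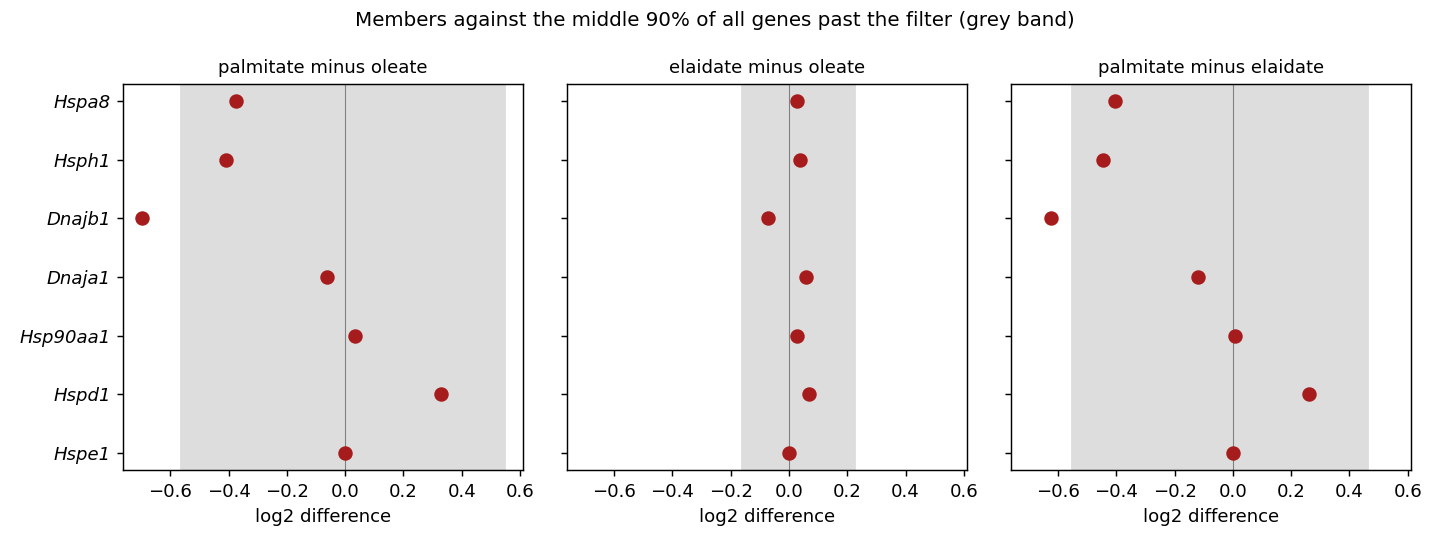
Log2 difference (horizontal axis) of the 7 members with a probe set of their own (rows) in the 3 comparisons (panels); points are single differences between 2 arrays, and the grey band holds the middle 90% of the 9410 genes past the filter. Dnajb1 lies outside the band in both panels with palmitate, and all 7 members lie between -0.07 and 0.07 for elaidate minus oleate.

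Other genes for mitochondrial proteins, of the matrix and the inner membrane, were read beside Hspd1. Of 13 chaperones and proteases of the mitochondria past the filter, 8 were higher, 3 lower and 2 equal for palmitate minus oleate, with a median difference of 0.13, and 3 of the 13 were at least 1.5-fold higher, where 4.57% of all genes were. Hspa9, the mitochondrial HSP70 that works ahead of Hspd1 in the folding of imported proteins, had log2 values of 11.42 with palmitate, 10.71 with elaidate and 10.64 with oleate. Lonp1, the protease that clears damaged matrix proteins, had 9.11 with palmitate, 8.25 with elaidate and 8.28 with oleate. Afg3l2, a subunit of an inner membrane protease, had 8.70 with palmitate, 8.07 with elaidate and 7.96 with oleate. In these 3 genes the palmitate array stood above both others, with differences from oleate of 0.78 for Hspa9, 0.83 for Lonp1 and 0.73 for Afg3l2. Dnaja3, the J-domain partner of Hspa9, followed at 0.37. The same 3 genes passed 1.5-fold for palmitate minus elaidate, beside 3.18% of all genes, at 0.71 for Hspa9, 0.86 for Lonp1 and 0.62 for Afg3l2. For elaidate minus oleate the 13 genes lay between -0.04 and 0.13.

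**Figure D3:**
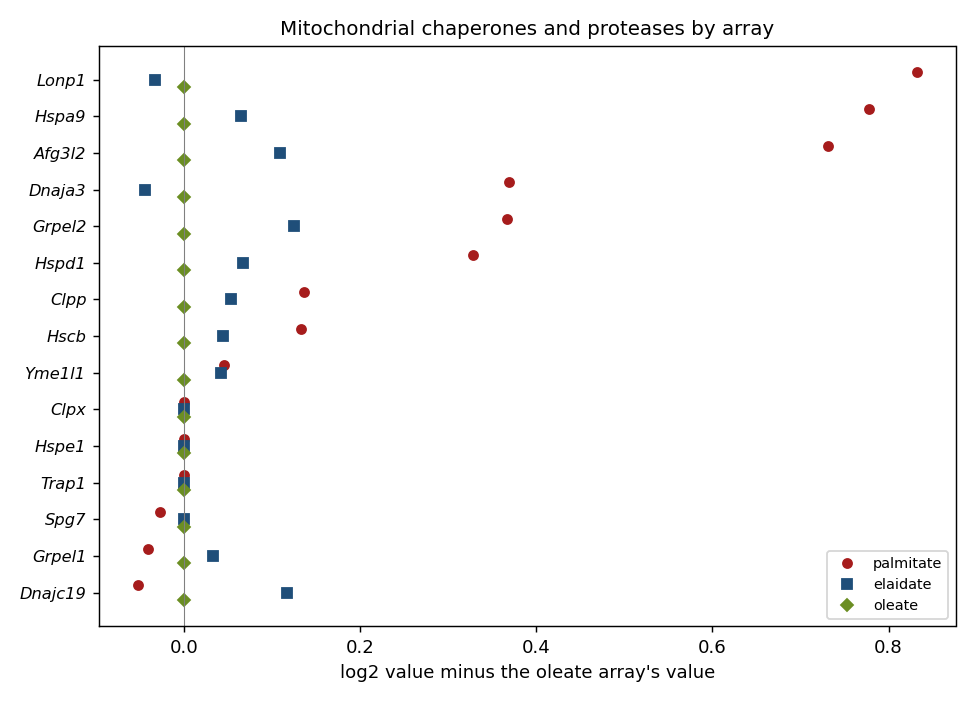
Log2 value minus the oleate array's value (horizontal axis) for Hspd1, Hspe1 and 13 other mitochondrial chaperones and proteases (rows), with 1 point per array, so that oleate is at 0. Palmitate lies furthest right for Lonp1, Hspa9 and Afg3l2, at 0.83, 0.78 and 0.73, with Hspd1 at 0.33, and the 3 points of Hspe1 coincide.

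The helpers of cytosolic HSP70 went both ways. Among 11 J-domain proteins past the filter, 5 were higher, 2 lower and 4 equal for palmitate minus oleate, with a median of 0. Dnaja2, a close relative of Dnaja1, was on the other side of 0 from Dnajb1, with 9.85 with palmitate, 9.55 with elaidate and 9.43 with oleate. Dnajc9, which also binds histones, had 6.99 with palmitate and 7.46 with each of elaidate and oleate, a difference of -0.47 for palmitate minus either. Dnajb6 differed by 0.14 and Dnajc5 by -0.14 for palmitate minus oleate. Dnajb6 was highest with elaidate, at 0.22 for elaidate minus oleate and -0.09 for palmitate minus elaidate. Of 7 nucleotide exchange factors and other partners of HSP70, 3 were higher and 4 lower, with a median of -0.08, and Hspbp1 at -0.18, Bag1 at -0.17 and Bag2 at -0.16 were furthest from 0. Bag3, an HSF1 target chosen here after its value was seen, stood at 0.04. Among 5 relatives of HSP70 and HSP110 past the filter, 2 were higher, 1 lower and 2 equal. Of these, Hspa13, which is found in microsomes, stood at 0.31 and Hspa2 at -0.10. The list was drawn up for relatives outside the endoplasmic reticulum, a name that Hspa13, as a microsomal protein, does not meet.

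The co-chaperones of HSP90 had a median of -0.03 for palmitate minus oleate, with 3 higher, 6 lower and 2 equal of 11. Fkbp5, an immunophilin that holds steroid receptors with HSP90, had the lowest value, with 7.77 with palmitate, 8.44 with elaidate and 8.73 with oleate. Its differences were -0.96 for palmitate minus oleate, -0.67 for palmitate minus elaidate and -0.30 for elaidate minus oleate. It was the one member of this list past 1.5-fold, 1 of 11 lower against each of the other arrays. Of all genes, 4.73% were at least 1.5-fold lower with palmitate than with oleate, and 4.43% were against elaidate. Cdc37, which brings kinases to HSP90, stood at -0.21 and Cacybp at -0.14 for palmitate minus oleate, and Ptges3, the p23 co-chaperone, at 0.04, with its widest gap in elaidate minus oleate at 0.15. Cacybp was highest with elaidate, at -0.34 for palmitate minus elaidate and 0.20 for elaidate minus oleate. The 8 subunits of TRiC, the cytosolic chaperonin, lay between -0.04 and 0.03 for palmitate minus oleate, with 6 equal, 1 higher (Cct2) and 1 lower (Cct7). Among the small heat shock proteins 1 of 7 measured genes passed the filter, Hspb6, at -0.13. Hspb1, the best known of that family, was under the filter, with values of 2.81 with palmitate, 2.79 with elaidate and 2.81 with oleate.

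Of regulators, 3 of 6 listed genes had a probe set of their own. Hsf2, a partner factor of HSF1, read 7.15 with palmitate, 6.95 with elaidate and 6.90 with oleate. Hsbp1, which binds HSF1 and limits it, read 9.38 with palmitate, 9.66 with elaidate and 9.52 with oleate. Hsf4 was equal on the 3 arrays at 5.57, and Hsf1 was not analysed here. The endoplasmic reticulum has its own chaperones, and of 14 past the filter, 9 were higher, 2 lower and 3 equal for palmitate minus oleate, with a median of 0.03. Dnajb9 at 2.00 and Herpud1 at 1.39 passed 2-fold there, 2 of 14 beside 1.65% of all genes at least 2-fold higher. None of the 7 cytosolic and mitochondrial members did, and with that share few or none would be looked for among 7 genes. Dnajb9 also stood at 0.63 for elaidate minus oleate, past 1.5-fold, beside 0.723% of all genes. The difference between these lists was not tested.

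**Figure D4:**
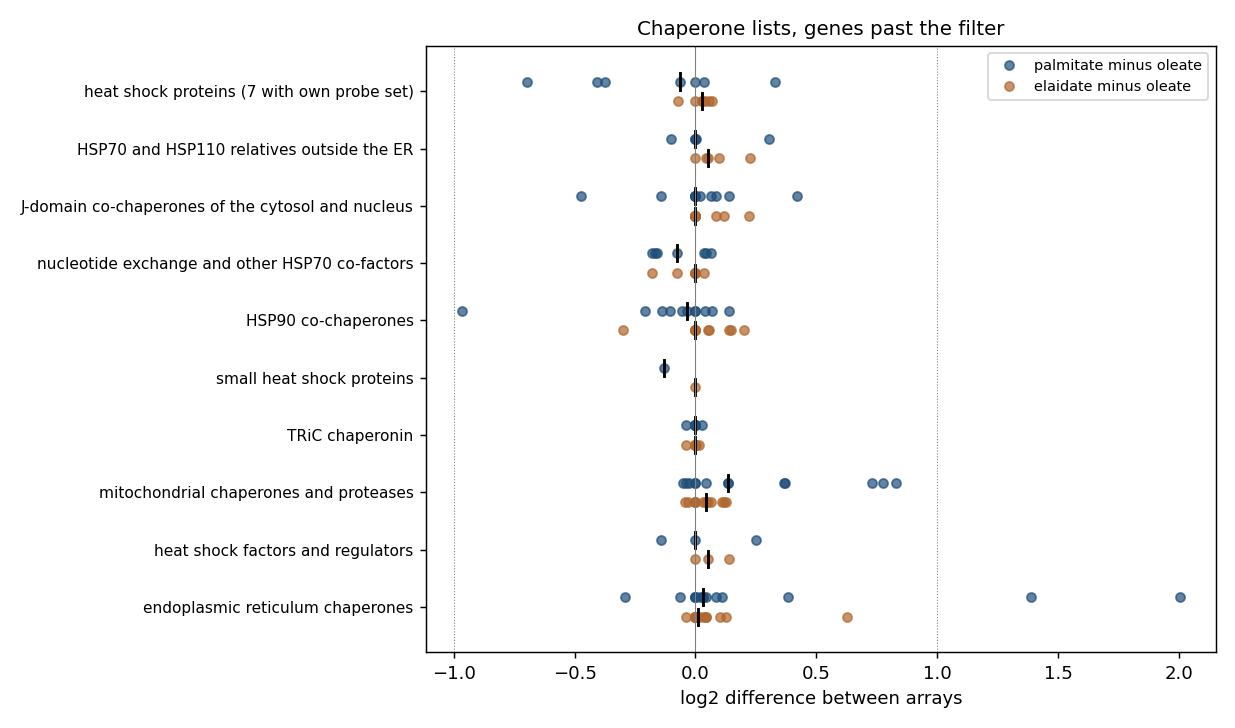
Log2 difference (horizontal axis) of each gene past the filter in 10 chaperone lists (rows), for palmitate minus oleate and elaidate minus oleate; points are genes, black bars are list medians and dotted lines mark 2-fold. The heat shock proteins and most lists straddle 0 for palmitate minus oleate, the mitochondrial list reaches 0.83, and the 2 points past 2-fold belong to the endoplasmic reticulum list. The row of relatives outside the endoplasmic reticulum holds Hspa13, which is found in microsomes.

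Other features of the arrays moved along with the palmitate values. Of the 10 macrophage markers, 8 were lower and 2 equal for palmitate minus oleate, with a median of -0.33, and 8 lower and 2 equal for palmitate minus elaidate, with a median of -0.30. Of all genes past the filter, 36.8% were lower and 32.3% equal for palmitate minus oleate, and 37.9% lower and 34.2% equal for palmitate minus elaidate. The summed linear level of the macrophage markers was 14235 with palmitate, 16746 with elaidate and 17518 with oleate, in the array's own units. Hspa8, Hsph1 and Dnajb1 lay on the same side of 0 as the macrophage markers, and the part of the markers' shift in the values of these 3 genes was not tested. Summed levels of the fibroblast markers (88.0), the measured lymphocyte markers (42.5) and the measured dendritic cell and granulocyte markers (67.4) were equal on the 3 arrays. Most of these other markers lay under the filter, where equal values say little.

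The genes whose pattern was most like that of Dnajb1, the member with the widest range, were picked by the smallest Euclidean distance between their 3 log2 differences and its own, among 9106 named genes past the filter. They were Hs2st1, a heparan sulfate sulfotransferase, Helb, a DNA helicase, Galnt2, which starts O-linked glycosylation, Srsf9, a splicing factor, and Slc35g1. Their differences for palmitate minus oleate were -0.69, -0.70, -0.71, -0.68 and -0.69 in that order, and their distances were 0.016 to 0.021. Likeness over 3 arrays rests on 2 free differences per gene.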

How the data were processed

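RNA of 3 RAW264.7 cultures was labelled and hybridised to Affymetrix whole-transcript arrays, 1 per fatty acid. Values were deposited on a log2 scale, 1 per probe set, and the submitters' processing notes name RMA without a version. RMA summarises the probes of a set by median polish, which can give identical values on several arrays. Groups came from the labels' fatty acid. Probe sets were named through the supplied platform annotation: 21218 of 35556 had 1 symbol, of which 21185 matched RefSeq by gene identifier, 1881 had several and 12457 were not named there. Probe sets of a gene were averaged. Genes at or above the median of the mean log2 values (4.14) passed the filter. Differences of log2 values were computed with no test, because each group has 1 array; a gene was counted when at least 2-fold different, with 1.5-fold and a log2 difference of 0.32 as alternative limits. Other alternatives were no filter, a filter at the 75th percentile, arrays centred on their medians, cyclic loess (limma 3.58.1 in R 4.3.3, 3 iterations at a span of 0.7), taking only a gene's brightest probe set and, added after seeing the data, the probe set numbered on the gene's own chromosome. The members and the gene lists were chosen with earlier results of these data known. All members were named. Of each other list, the genes named were those past 2-fold or otherwise the 2 to 4 furthest from 0 in any of the 3 comparisons. The 5 nearest patterns were named too, leaving out predicted and small RNA genes. Hspb1 and Bag3 were named outside these rules. Arrays have no read depth, and their number limits the precision. The counting was tested on simulated data. Software was Python 3.11.15 with pandas 2.3.3, numpy 2.4.6 and matplotlib 3.10.9.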

Additional observations from a re-analysis of the deposited data

How the results depend on the processing

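Each member's log2 differences moved by less than 0.1 under centring, cyclic loess, a gene's brightest probe set and the probe set numbered on the gene's own chromosome (84 of 84 values). Part of this was fixed in advance. Centring shifts every gene by the same amount, which was under 0.1 in each comparison. Hsph1 and Dnajb1 have 1 probe set each, so the choice of probe set cannot move them. Values near 0 changed side: after centring, Hsp90aa1 stood at -0.01 for palmitate minus oleate and at -0.02 against elaidate, and Hspe1, equal as deposited, at -0.04 for palmitate minus oleate. Centring moved all genes alike: their median became -0.04 for palmitate minus oleate and -0.03 against elaidate, from 0 in both. With the set numbered on its own chromosome, Hspa8 stood at -0.01 for elaidate minus oleate. The medians over the 7 members also moved by less than 0.1 (15 of 15), but that is as large as the medians: palmitate minus oleate, -0.06, ranged from -0.13 to 0, and against elaidate, -0.12, from -0.21 to -0.03, at -0.06 without the member furthest from 0. The count of members past the limit depended on the limit. For palmitate minus oleate, 0 members were lower at 2-fold, 1 at 1.5-fold and 3 at a log2 difference of 0.32, and 1, Hspd1, was higher at 0.32, a call lost after centring (0.29) and with its brightest probe set (0.24). For palmitate minus elaidate, 1 was lower at 1.5-fold and 3 at 0.32. Of the medians of other chaperone lists, 128 of 132 moved by less than 0.1. Many of these could hardly move, because centring shifts all genes alike and most listed genes have 1 probe set. With the filter at the 75th percentile the heat shock factors and regulators were left with 1 gene, at -0.14 (palmitate minus oleate) and -0.28 (against elaidate), in place of a median of 0. Without the filter the small heat shock proteins had a median of 0 in both comparisons over 7 genes, in place of -0.13 over 1 gene. No paired analysis was possible because each fatty acid has 1 array, and for the same reason no replicate could be left out. Differences of a few hundredths cannot be separated from the error between arrays, which was not measured.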
